A study of Homo sapiens with 6 samples.

Results

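The HNK-1 epitope is a sulfated glucuronic acid cap on the sugar chains of cell surface and matrix glycoproteins and glycolipids. A glucuronyltransferase, B3GAT1 or B3GAT2, places glucuronic acid on a terminal galactose, and the sulfotransferase CHST10 then adds the sulfate that the HNK-1 antibody recognises. The antibody is a classic marker of migrating neural crest cells, the embryonic source of melanocytes, and it also defines CD57 on natural killer cells. NCAM1 and L1CAM, immunoglobulin-type cell adhesion proteins of the nervous system, are well-known carriers. B3GAT3 belongs to the same enzyme family and adds the glucuronic acid of the linkage region that joins glycosaminoglycan chains to proteoglycan core proteins.

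These 6 genes, B3GAT1, B3GAT2, B3GAT3, CHST10, NCAM1 and L1CAM, were taken by gene name from the 57914 genes of the deposited count and TPM tables. The enzymes were chosen for their place in HNK-1 synthesis and the adhesion proteins as carriers. B3GAT1 was chosen by its measured rise in ALDH_High against ALDH_Low in these same libraries, so its values are a description and carry no test. RNA was measured, so neither the proteins nor the epitope itself were observed.

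The libraries came from A375, an established human melanoma cell line grown in high-glucose medium with serum. The cells were stained with Aldefluor, a substrate that turns fluorescent in cells with aldehyde dehydrogenase activity, and sorted. ALDH_High is the 5% of cells with the highest signal and ALDH_Low the 5% with the lowest, with 3 libraries each. The labels do not say whether the libraries come from separate cultures, so p-values measure the spread between these libraries, which may be technical. Total counts per library lay between 26692868 and 37830603. ALDH_High library 1 stood apart from libraries 2 and 3 on the second principal component of log2 CPM (14.5% of the variance), at 49.1 against -22.0 and -32.5. ALDH1A3, named in the study's title, had 683, 1149 and 1088 CPM in ALDH_High libraries 1, 2 and 3, so library 1 was the lowest. It had 345 to 420 CPM in ALDH_Low. Of 7 melanoma and melanocyte markers, 4 were tested, 2 were higher in ALDH_High (SOX10 and S100B) and 1 was lower (MITF). Among all genes tested, 10.8% were higher and 9.83% lower. MITF had a log2 fold change of -0.92 (edgeR adjusted p 0.00667). SOX10 was abundant, with 596 to 769 CPM in ALDH_High and 177 to 208 CPM in ALDH_Low on total counts. The pigment genes MLANA, TYR and PMEL had at most 3, 2 and 19 counts in any library.

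B3GAT1 (ENSG00000109956, chromosome 11, 134378504 to 134412242 on the minus strand, GRCh38, GENCODE 44) was the member whose level differed most between the sorted groups. It had 758, 1050 and 884 counts in ALDH_High libraries 1, 2 and 3, and 40, 33 and 39 counts in ALDH_Low libraries 1, 2 and 3. On the length-corrected TPM scale the levels were 10.1, 11.3 and 9.91 TPM in ALDH_High against 0.368, 0.400 and 0.475 TPM in ALDH_Low. Every ALDH_High library was far above every ALDH_Low library, and within each group the libraries were close to each other.

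B3GAT1 averaged 28.7 ± 2.45 CPM in ALDH_High but 1.18 ± 0.194 CPM in ALDH_Low (SD, n = 3), a ratio of 24.3. Its fitted log2 fold change was 4.61 (SE 0.19) and ranked 46 from the highest among the 17047 genes tested. In ALDH_High 50.9% of the tested genes had a lower mean TPM than B3GAT1, and in ALDH_Low 8.09% did. Its RNA thus sat near the middle of the tested genes in ALDH_High and near the bottom in ALDH_Low. In bulk libraries, fewer cells with the transcript and less of it per cell cannot be told apart.

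**Figure D1:**
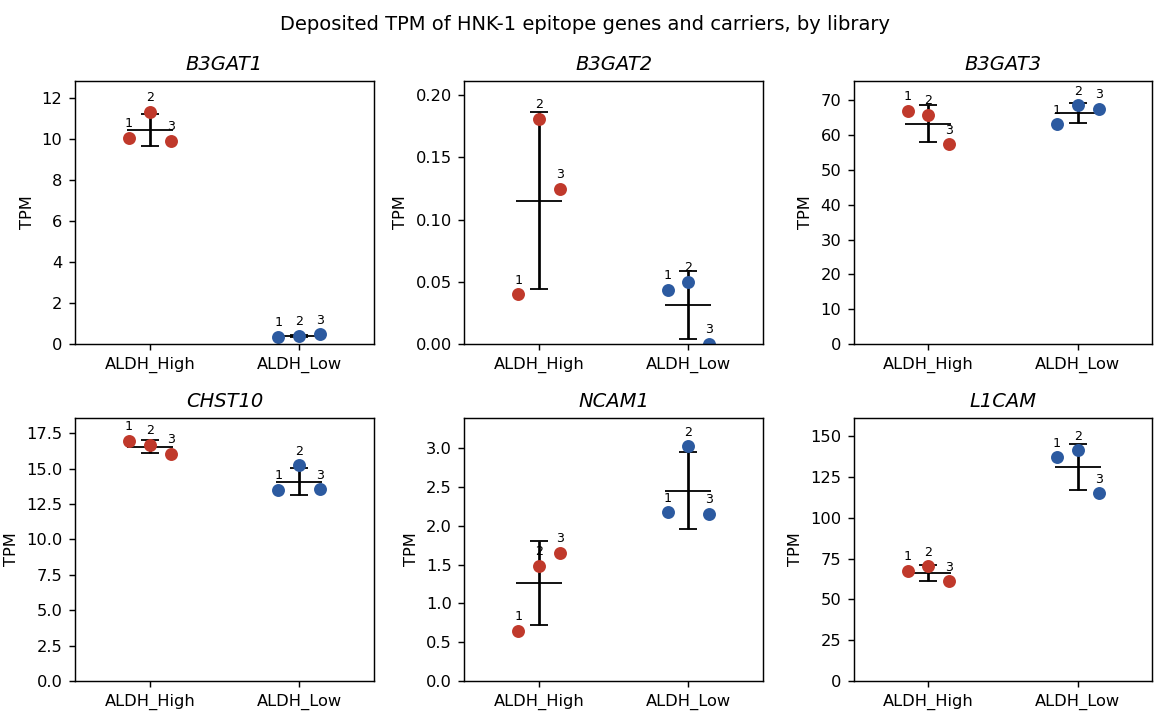
Each panel plots the deposited TPM of 1 gene (linear axis from 0) in the 3 ALDH_High (red) and 3 ALDH_Low (blue) libraries, numbered by replicate, with the mean and SD as bars. B3GAT1 lies between 9.91 and 11.3 TPM in ALDH_High and at most at 0.475 TPM in ALDH_Low, while NCAM1 and L1CAM lie lower in ALDH_High, and B3GAT3 overlaps between the groups.

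B3GAT2 (chromosome 6, 70856679 to 70957060, minus strand) encodes the other enzyme that can start the epitope and was barely detected. It had 3, 18 and 12 counts in ALDH_High and 5, 5 and 0 counts in ALDH_Low, which is at most 0.181 TPM. The groups overlapped, since ALDH_High library 1 was below ALDH_Low libraries 1 and 2. The gene did not pass the filter on low counts and was left out of the main fit. An exact two-sided permutation test of its CPM gave p = 0.3, where 0.1 is the smallest that 3 against 3 libraries allow. In the edgeR fit without that filter its log2 fold change was 1.69 (SE 0.73, adjusted p 0.126 over 34665 genes), so a difference was not detectable at this depth.

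B3GAT3 (chromosome 11, 62615296 to 62622154, minus strand), the proteoglycan linkage enzyme, was abundant in all libraries. It had 66.8, 65.6 and 57.2 TPM in ALDH_High and 63.0, 68.4 and 67.5 TPM in ALDH_Low, and the groups overlapped. The log2 fold change was -0.11 (SE 0.13, edgeR quasi-likelihood adjusted p 0.596), with an exact permutation p of 0.4. Without ALDH_High library 3, its lowest library, the log2 fold change was 0.000203.

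CHST10 (chromosome 2, 100391860 to 100417668, minus strand), the sulfotransferase that completes the epitope, was present at a middle level in both groups. It had 16.9, 16.7 and 16.0 TPM in ALDH_High and 13.5, 15.2 and 13.5 TPM in ALDH_Low. The groups did not overlap in TPM but did in CPM, where ALDH_High library 3 (27.6 CPM) was below ALDH_Low library 2 (27.97 CPM). The log2 fold change was 0.19 (SE 0.13, edgeR adjusted p 0.346, exact permutation p = 0.2) and passed in none of 15 alternatives.

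The shares of the 3 glucuronyltransferases and the ratio of B3GAT1 to CHST10 are described without a test. B3GAT1 was chosen for its rise and neither B3GAT3 nor CHST10 passed, so these values largely restate that rise. Of their summed TPM, B3GAT1 took 13.1%, 14.7% and 14.7% in ALDH_High libraries 1 to 3 and 0.581%, 0.581% and 0.699% in ALDH_Low libraries 1 to 3. B3GAT3 held 85.7 ± 1.02% in ALDH_High and 99.3 ± 0.0274% in ALDH_Low (SD, n = 3). Set against the sulfotransferase, there were 0.632 ± 0.0443 B3GAT1 TPM per CHST10 TPM in ALDH_High and 0.0296 ± 0.00487 in ALDH_Low. The ratio of B3GAT3 to CHST10, which does not involve B3GAT1, was 3.94, 3.94 and 3.57 in ALDH_High and 4.66, 4.50 and 5.00 in ALDH_Low (exact permutation p = 0.1, the smallest possible). Neither gene passed the test on its own, while every ALDH_High library had a lower ratio than every ALDH_Low library. Such separation is common, since 37.8% of all genes tested did not overlap between the groups in CPM. Other ratios between members were computed as well, and no background share was computed for ratios, so a shift in balance was not established.

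The carriers NCAM1 and L1CAM were both lower in ALDH_High, the opposite direction to B3GAT1. These were 2 of the 4 members that passed the filter other than B3GAT1, beside 9.83% of all 17047 genes tested that were lower and 20.6% that differed in either direction (edgeR adjusted p below 0.05). The groups did not overlap in CPM for NCAM1 and L1CAM, as for 37.8% of all genes tested.

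L1CAM (chromosome X, 153861514 to 153886173, minus strand), which supports axon growth and cell migration, was the member with the highest TPM in each of the 6 libraries. It had 67.6, 70.2 and 61.0 TPM in ALDH_High and 137, 141 and 115 TPM in ALDH_Low. All ALDH_High libraries were well below all ALDH_Low libraries. The means were 174.8 ± 20.2 and 356 ± 26.9 CPM (SD, n = 3), with a log2 fold change of -1.03 (SE 0.12, edgeR adjusted p 0.000263, exact permutation p = 0.1). The call held in each of the 15 alternatives, where the log2 fold change lay between -1.09 and -0.924 and the highest adjusted p was 0.00681.

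NCAM1 (chromosome 11, 112961275 to 113278436, plus strand), known on natural killer cells as CD56, was low in all libraries. It had 52, 149 and 160 counts in ALDH_High and 254, 273 and 193 counts in ALDH_Low, or 0.640, 1.49 and 1.65 against 2.17, 3.02 and 2.16 TPM. ALDH_High library 1 was the lowest by a wide margin, and library 3 came nearest to the ALDH_Low group. The log2 fold change was -1.02 (SE 0.30, edgeR adjusted p 0.0359, exact permutation p = 0.1). The call depended on single libraries: the edgeR adjusted p was 0.0655 without ALDH_High library 2, and 0.0617, 0.127 and 0.0824 without ALDH_Low libraries 1, 2 and 3. It was also lost in limma on log2(TPM + 1) and log2(TPM + 0.1), at adjusted p from 0.130 to 0.270.

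L1CAM made up 98.1 ± 0.868% of the summed TPM of both carriers in ALDH_High and 98.2 ± 0.267% in ALDH_Low (SD, n = 3). The balance between them was not distinguishable (exact permutation p = 1). In order of TPM, each ALDH_High library had L1CAM, B3GAT3, CHST10, B3GAT1, NCAM1 and B3GAT2, and each ALDH_Low library had the same order with B3GAT1 below NCAM1. Within ALDH_High, L1CAM (66.2 ± 4.76 TPM) and B3GAT3 (63.2 ± 5.22 TPM) lay within each other's spread. The other neighbours in either order were further apart than their SDs.

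Other proteins reported to carry HNK-1 formed a list of 14 genes, of which 10 were tested, 6 rose in ALDH_High, 0 fell and 4 did not pass. Among all genes tested 10.8% were higher. The median log2 fold change of the list was 1.945, against -0.013 over all genes. Of the genes that rose, MAG and ACAN entered the test only through ALDH_High, so the count and the median are partly set by the filter. TNC, the matrix glycoprotein tenascin C, had 1999, 1673 and 1615 CPM in ALDH_High and 345, 348 and 403 CPM in ALDH_Low. It had the highest TPM of the list in every ALDH_High library (379.7 to 414.5), while PMP22 was above it in every ALDH_Low library (88.8 to 90.5 against 76.0 to 83.6 TPM). The groups of TNC lay far apart (log2 fold change 2.27, SE 0.13, edgeR adjusted p 4.69e-06).

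ACAN, the core protein of the proteoglycan aggrecan, averaged 14.2 ± 4.17 CPM in ALDH_High but 0.437 ± 0.205 CPM in ALDH_Low (SD over 3 libraries), a log2 fold change of 4.99. PTPRZ1, a receptor-type phosphatase of glial cells, had 10.1 ± 0.980 and 0.864 ± 0.492 CPM (3.51). NRCAM, a relative of L1CAM, had 14.3 ± 2.83 and 2.98 ± 0.974 CPM, so that this member of the L1 family rose (2.28) while L1CAM fell. The myelin proteins PMP22 and MAG rose as well, with log2 fold changes of 1.62 and 2.75. MAG passed the filter only through ALDH_High, where it reached 0.695 to 1.10 CPM, so its difference is partly set by the filter. ACAN reached the level of that filter in 3 ALDH_High and 2 ALDH_Low libraries, so it too entered the test through ALDH_High.

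NFASC, the remaining L1 family member that was tested, had 16.9 ± 1.64 and 17.7 ± 2.91 CPM (log2 fold change -0.064, edgeR adjusted p 0.828). The fourth member of that family, CHL1, was too low to test, as were TNR, CNTN2 and NCAN. DAG1, CNTN1 and GRIA2 did not pass. Across the 15 alternatives between 4 and 7 genes of the list rose and 0 fell.

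**Figure D2:**
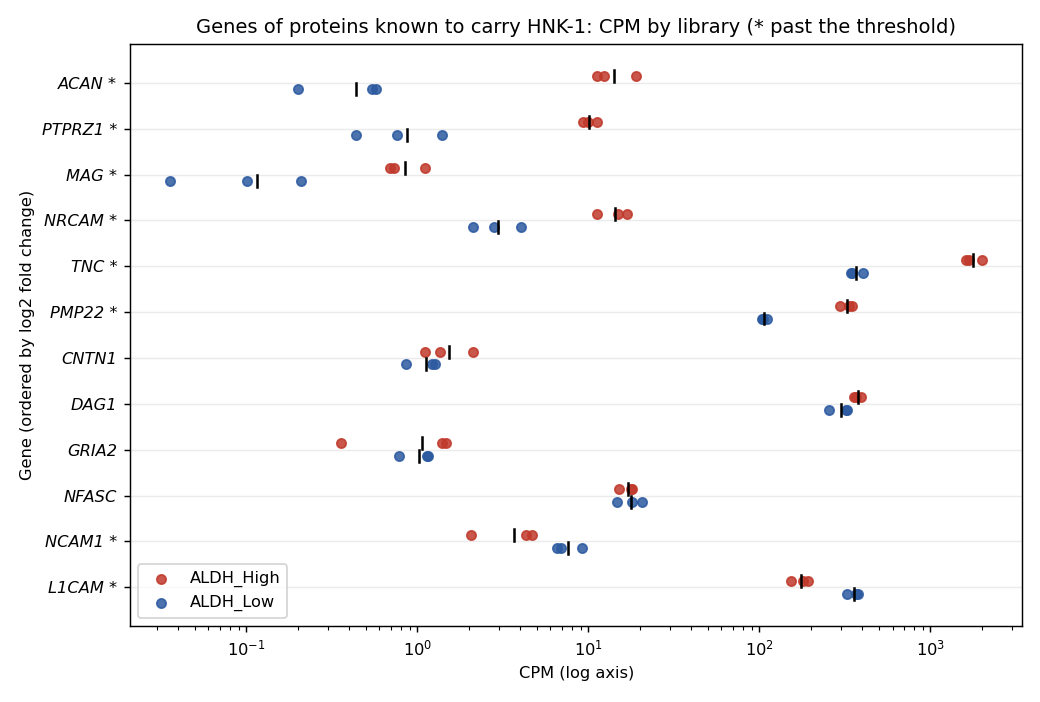
CPM on a log axis for the 12 carrier genes that were tested, NCAM1 and L1CAM included, ordered by log2 fold change, with 3 ALDH_High (red) and 3 ALDH_Low (blue) libraries and the group mean as a black bar. NCAM1 and L1CAM are the 2 genes marked as past the threshold whose ALDH_High points lie to the left of the ALDH_Low points, and the 6 others marked lie to the right.

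Some of these carriers, such as PMP22, also mark Schwann and glial cells. Of the 5 genes in a Schwann and glial marker list, 4 were tested, 3 were higher (CDH19, PMP22 and S100B) and 0 lower. Their summed level was 338 to 428 CPM in ALDH_High and 115 to 125 CPM in ALDH_Low on total counts, most of it PMP22. MBP had at most 9 counts and GFAP at most 20 in any library. Of 11 neural crest markers, 5 were higher (TFAP2B, ERBB3, SOX10, TWIST1 and FOXD3) and 2 lower (SOX9 and TFAP2A), beside 10.8% and 9.83% of all genes, with summed levels of 1090 to 1230 and 456 to 484 CPM. TFAP2A missed the threshold in 8 of 15 alternatives, among them leaving out any single library but ALDH_High library 3. TFAP2B and FOXD3 needed ALDH_High to pass the count filter. Their part in the carrier results was not tested. Natural killer and T cell markers, which bear on CD57 and CD56, summed to 1.02 to 2.1 CPM in ALDH_High and 0.535 to 1.31 CPM in ALDH_Low. CD2 and NKG7 were at 0 in every library, and the 1 of 8 that was high enough to test, KLRD1, did not pass (edgeR adjusted p 0.192). Of 7 neuronal markers 3 were tested and 0 passed, and all but TUBB3 had at most 102 counts in any library.

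The donors of the sugar and sulfate were in a list of 9 genes, all tested, of which 3 rose, 0 fell and 6 did not pass, with a median log2 fold change of 0.32. Among all genes tested 10.8% were higher and 9.83% lower. PAPSS2, which makes the sulfate donor PAPS, had 93.3, 97.0 and 99.8 CPM in ALDH_High and 46.9, 43.4 and 37.6 CPM in ALDH_Low, a log2 fold change of 1.18 (SE 0.12, edgeR adjusted p 9.4e-05). UGP2, which makes UDP-glucose, had 94.6, 82.3 and 95.5 against 40.3, 42.6 and 44.7 CPM (1.09, SE 0.11, edgeR adjusted p 0.000114). For both genes the ALDH_High libraries lay at about the same level and well above ALDH_Low. UXS1, which turns UDP-glucuronic acid into UDP-xylose and so uses the donor up, also rose (0.71). UGDH, the enzyme that makes UDP-glucuronic acid, had 32.0 ± 0.879 and 25.5 ± 2.60 CPM (0.33, edgeR adjusted p 0.0951). PAPSS1 (0.17) and the transporters SLC35D1 (0.16), SLC35D2 (-0.39), SLC35B2 (0.32) and SLC35B3 (0.27) did not pass. The calls of PAPSS2, UGP2 and UXS1 held in all 15 alternatives.

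The acceptor on which B3GAT1 acts is built by galactosyl- and N-acetylglucosaminyltransferases. A list of 21 genes for this synthesis also holds POMT1, POMT2 and UGCG, which are of other enzyme classes. Of the 21, 20 were tested, 5 rose and 2 fell, with a median log2 fold change of 0.006. That is 25% higher and 10% lower, where 10.8% and 9.83% of all genes tested were. B4GALT1, a major galactosyltransferase for N-acetyllactosamine, had 69.1, 62.1 and 63.4 CPM in ALDH_High and 131, 128.5 and 103 CPM in ALDH_Low (-0.90, SE 0.13, edgeR adjusted p 0.000695). B4GALT5, which acts mainly in glycolipid synthesis, went the other way, with 135 ± 3.72 and 81.6 ± 3.72 CPM (0.72, SE 0.10, edgeR adjusted p 0.000734). B4GALT5 lies on chromosome 20, whose 437 tested genes had a median log2 fold change of 0.255. B4GALT4 (0.60), MGAT5 (0.61) and MGAT3 (2.03), which add sugars to glycan chains, rose, as did POMT1 (0.58), which starts O-mannosyl chains. MGAT5B (-0.42), which branches O-mannosyl chains, fell. MGAT3 was low throughout (20, 5 and 12 counts in ALDH_Low) and needed ALDH_High to pass the count filter, so that its difference is partly set by the filter.

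Within this list, B4GALT4 missed the threshold without ALDH_Low library 1 or 2, POMT1 without ALDH_High library 2, and MGAT5B without ALDH_High library 2, without any single ALDH_Low library and in all 3 limma fits on TPM. The galactosyltransferases B4GALT2 and B4GALT3 and the chain-extending B3GNT2 had log2 fold changes of -0.046, 0.21 and -0.11 and did not pass.

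Sialic acid and fucose caps use the same terminal chains. Of 12 genes, 9 were tested, 2 rose, 1 fell and 6 did not pass, with a median log2 fold change of -0.10. The shares higher and lower were 22.2% and 11.1%, beside 10.8% and 9.83% of all genes. ST6GAL1, which adds the alpha-linked sialic acid that ends many N-glycans, had 111, 78.6 and 77.8 CPM in ALDH_High and 6.10, 8.63 and 8.52 CPM in ALDH_Low. The groups lay far apart (log2 fold change 3.53, SE 0.20, edgeR adjusted p 4.69e-06), and the call held in all 15 alternatives. ST3GAL6 rose (1.23) and FUT9, a fucosyltransferase that makes the Lewis X structure, fell (-1.72, 0.302 ± 0.0905 against 1.01 ± 0.440 CPM). FUT9 reached the level of the count filter in 3 ALDH_Low libraries and 1 ALDH_High library. It thus entered the test only through the group where it was high, so its difference is partly set by the filter. Calls were lost for ST3GAL6 without ALDH_Low library 2, and for FUT9 without ALDH_High library 1 or 3 or ALDH_Low library 1 or 2. Of the polysialyltransferases that modify NCAM1, ST8SIA4 had 6.10 to 10.3 CPM in ALDH_High and 6.93 to 11.3 CPM in ALDH_Low (edgeR adjusted p 0.684). ST8SIA2 was too low to test, as was the related ST8SIA3.

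B3GAT3 works in the proteoglycan linkage region, and of 10 other genes of that region all were tested, 2 rose, 0 fell and 8 did not pass, with a median log2 fold change of 0.23. The share called, 20%, was that of all genes tested (20.6%). PXYLP1, the phosphatase that removes the xylose phosphate of the linker, had 46.1, 61.4 and 51.8 CPM in ALDH_High and 7.37, 7.86 and 9.71 CPM in ALDH_Low, a log2 fold change of 2.68 (SE 0.16, edgeR adjusted p 6.12e-06). CSGALNACT1, which commits a chain to chondroitin sulfate, had 7.51 ± 2.75 and 1.18 ± 0.568 CPM (2.65, SE 0.39, edgeR adjusted p 0.000992). The enzymes that build the linker itself stayed short of the threshold, among them XYLT1 (0.43), XYLT2 (-0.062), B4GALT7 (0.22), B3GALT6 (-0.004) and FAM20B (0.19). Of 6 sulfotransferases related to CHST10, 3 were tested and 0 passed: CHST11 (0.38), CHST12 (0.52, edgeR adjusted p 0.0509) and CHST14 (0.36). At an unadjusted p below 0.05, 2 of them (CHST12 and CHST14) were higher, and DESeq2 called 1, CHST12, at an adjusted p of 0.0201. CHST12 passed in 6 of 15 alternatives, with adjusted p from 0.0057 to 0.177, CHST11 in 1 (without ALDH_Low library 1) and CHST14 in 0. Over all alternatives 0 to 2 genes of this list were called.

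Binding partners and processing enzymes of NCAM1 and L1CAM made up 14 genes, all tested, of which 5 rose, 2 fell and 7 did not pass (median log2 fold change 0.18). These are 35.7% and 14.3% of the list, beside 10.8% higher and 9.83% lower over all genes. ANK3, an ankyrin that anchors L1 family proteins to the membrane skeleton, had 29.9 ± 1.501 and 7.69 ± 2.65 CPM (1.96, SE 0.22, edgeR adjusted p 0.000170). PRNP, the prion protein, which binds NCAM1, had 330 ± 31.3 and 173 ± 19.7 CPM (0.93, SE 0.12, edgeR adjusted p 0.000509), and it too lies on chromosome 20. GAP43, a growth cone protein, rose (1.42), as did the kinase FYN (0.54) and the sheddase ADAM10 (0.73). FGFR1, a signalling partner of NCAM1, fell (-0.68), and so did NRP1, a co-receptor that binds L1CAM (-0.84, edgeR adjusted p 0.0491), though ALDH_High library 1 (67.4 CPM) was above ALDH_Low library 3 (65.3 CPM). The sheddase ADAM17 (-0.022) and the paralog NCAM2 (0.11) did not pass.

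Of these partners, ANK3 and PRNP passed in all 15 alternatives. The others each lost the call without certain libraries: GAP43 without ALDH_Low library 2 or 3, FGFR1 without ALDH_High library 2 or 3 or ALDH_Low library 2 or 3, and ADAM10 without ALDH_High library 2 or ALDH_Low library 1 or 3. FYN lost it without any single library but ALDH_Low library 2, and NRP1 without any single library but ALDH_High library 1, and also with DESeq2 size factors. ADAM10 and NRP1 missed the threshold in all 3 limma fits on TPM as well, and GAP43, FGFR1 and FYN in the one that kept every gene.

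**Figure D3:**
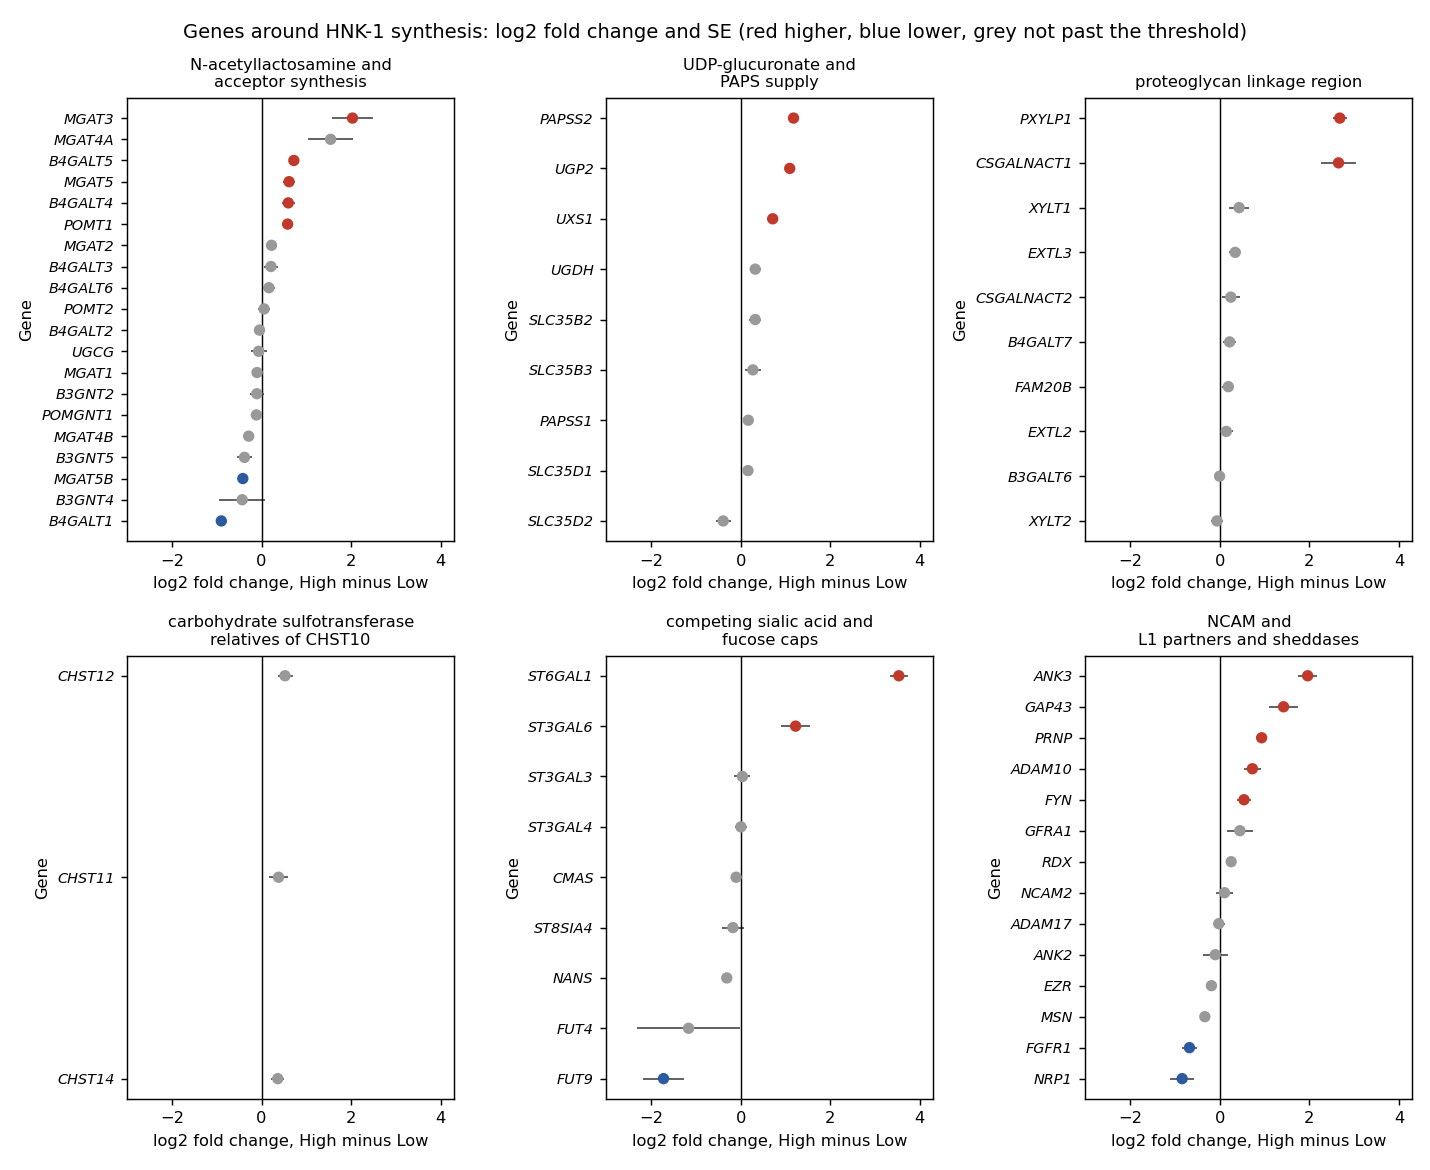
Log2 fold change (ALDH_High minus ALDH_Low) with its SE for every tested gene of 6 lists around HNK-1 synthesis and its carriers, in red where higher, in blue where lower and in grey where not past an adjusted p of 0.05. ST6GAL1 at 3.53, PXYLP1 at 2.68 and CSGALNACT1 at 2.65 lie farthest to the right, and FUT9 at -1.72 lies farthest to the left.

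Genes next to the members in the annotation (GENCODE 44) were called in both directions. GLB1L2, the nearest tested gene to B3GAT1, ends 163 bases from the end of B3GAT1 on the opposite strand, and its mean rose from 10.6 ± 1.88 CPM in ALDH_Low to 37.0 ± 2.03 CPM in ALDH_High (log2 fold change 1.80, edgeR adjusted p 3.85e-05). The library kit kept the strand, but whether the counting used it is not stated, so reads that cross this boundary may be uncertain. Of the 7 other tested genes within 1 Mb of B3GAT1, 2 were higher and 0 lower, beside 10.8% and 9.83% of all genes tested. ROM1 ends 180 bases from B3GAT3 on the opposite strand and was lower (-1.46, edgeR adjusted p 0.000839) while B3GAT3 did not pass. On the other side of B3GAT3, GANAB did not pass (0.15, edgeR adjusted p 0.387).

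Beside L1CAM, PDZD4 was higher (2.43, edgeR adjusted p 1.30e-05) and AVPR2, which needed ALDH_Low to pass the count filter, lower (-2.67, edgeR adjusted p 0.000570). Within 1 Mb of L1CAM 9 of 54 tested genes were higher and 3 lower, beside 10.8% and 9.83% of all genes tested. Around B3GAT3 4 of 46 were higher and 8 lower, and around CHST10 2 of 13 and 2. Around NCAM1 3 of 17 were higher and 1 lower, and around B3GAT2 3 of 9 and 1. Beside CHST10, LONRF2 was higher (1.37) and PDCL3 did not pass (-0.15). The genes nearest to NCAM1 (LINC02762, -0.33, and TTC12, -0.17) and to B3GAT2 (SDHAF4, -0.18, and LINC00472, -1.25) did not pass. SMAP1 overlaps the end of B3GAT2 on the opposite strand, with 864 counts at most in a library, so the few B3GAT2 counts are uncertain. The antisense RNAs L1CAM-AS1 and NCAM1-AS1 had at most 7 and 1 counts. The other genes that overlap NCAM1, TTC12-DT, RNU7-187P and the unnamed ENSG00000247416, had at most 5, 0 and 20 counts. A readthrough gene on the same strand overlaps L1CAM in the annotation. It is not among the genes of the deposited count and TPM tables, which hold no separate count for it. Its reads, if any, could thus not be told apart from those of L1CAM.

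Across the 6 libraries, the genes whose log2 CPM followed B3GAT1 most closely were SLAIN1 (Pearson r 0.9996), ABHD17C (0.9987), DUSP9 (0.9986), AGK (0.9984) and CIITA (0.9983), of 11022 genes compared. All had higher levels in ALDH_High, with log2 fold changes from 0.57 for AGK to 2.68 for CIITA, the activator of MHC class II genes. That direction follows from their choice by correlation with B3GAT1, which was itself chosen for its rise. The libraries fall into 2 sorted groups, so these values are a ranking with no test, and 545 genes exceeded 0.95. CHST10 was followed most closely by P3H1 (0.9975), CCDC86 (0.9955), SEPTIN9 (0.9904, written as a date in the deposited gene names), YRDC (0.9887) and SPOUT1 (0.9871), with log2 fold changes from 0.14 to 0.30, and 0 of these 5 passed the test. Without ALDH_High library 1, P3H1 moved from 0.30 to 0.19, CCDC86 from 0.15 to 0.10 and SPOUT1 from 0.23 to 0.13.

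The authors' deposited table gives log2 coefficients of each gene in 4 groups, named HIG, LOW, CAS and OUT1A3, against a group named 1A3. The libraries of CAS, OUT1A3 and 1A3 were not analysed here. The names are not explained in the sources used, and all coefficients share the 1A3 group. HIG and LOW were read as the ALDH_High and ALDH_Low libraries analysed above, so their values are no independent test. In the authors' deposited table, B3GAT1 is at 3.64 (SE 0.35) for HIG, -0.99 (SE 0.37) for LOW, 2.15 (SE 0.35) for CAS and 2.66 (SE 0.46) for OUT1A3. L1CAM is at -0.12, 0.88, 0.45 and 0.34 in the authors' deposited table, and NCAM1 at -0.43, 0.58, 1.10 and 1.20, in the same order of groups. For CHST10 the authors' deposited table holds 0.22, 0.015, 0.20 and 0.10, each with an SE of 0.21 to 0.29, and for B3GAT3 it holds -0.80, -0.70, -0.42 and 0.17. B3GAT2 has SEs of 1.20 to 2.03 in the authors' deposited table. All of B3GAT1's coefficients except that of LOW are above 2, as in the authors' deposited table for 3.03% of genes in HIG, 2.53% in CAS and 2.62% in OUT1A3. For L1CAM and NCAM1 the value of LOW is above that of HIG, which restates the fits above on the same libraries. The HIG value of B3GAT1 is likewise a description, since the gene was chosen for its rise in ALDH_High.

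**Figure D4:**
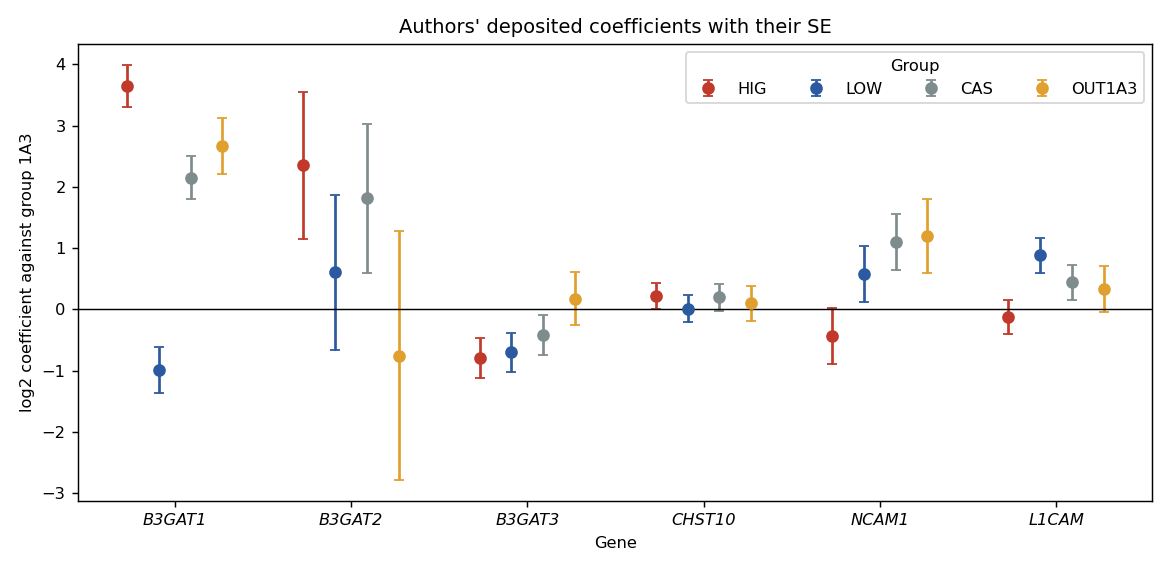
The authors' deposited log2 coefficients against the group named 1A3 (vertical axis, linear) for the 6 genes, with bars of 1 SE, for the groups HIG (red), LOW (blue), CAS (grey) and OUT1A3 (orange). B3GAT1 lies at 3.64 in HIG and at -0.99 in LOW, and the 4 values of CHST10 lie within 1 SE of each other.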

How the data were processed

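RNA of 3 ALDH_High and 3 ALDH_Low libraries was used. The authors deposited whole-number counts per gene, which behave as rounded estimated counts (133 to 177 genes per library have a count of 0 beside a TPM above 0), and TPM (transcript levels scaled for gene length and depth). Per the submitters' processing notes, FastQC 0.11.3, STAR 2.5.1b, HTSeq 0.6.1, DESeq2 and GRCh38 were named, with no role or order. The deposited TPM table also holds, per the file headers, log2 coefficients of 4 groups against a group named 1A3 with their standard errors, and 226 genes with shifted cells there were left out. The lists and members were chosen with earlier results of these data known.

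Counts passed edgeR's filterByExpr (17047 genes), were scaled with TMM and tested with edgeR 4.0.16 (glmQLFTest, two-sided, no replicate term, Benjamini-Hochberg over all genes tested, threshold 0.05). CPM uses TMM-scaled library sizes unless total counts are named. Each SE was obtained from the F statistic, as the size of the log2 fold change over the root of F. The 261 genes with an identifier but no symbol held at most 0.0267% of a library's counts and stayed in. Counting precision is set by 26692868 to 37830603 counts per library, without molecular identifiers. Single values were compared by exact two-sided permutation. Positions come from GENCODE 44, matched by identifier for 99.1% of genes tested. In R 4.3.3, alternatives used DESeq2 1.42.0, limma 3.58.1 on TPM, other scaling and filters, a replicate block, and each library left out. Some genes of the lists are not reported here and were left out of list counts and sums. The fits were tested on simulated data. No columns of other samples were used.

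Genes were named by rule: all members and ALDH1A3; per list up to 4 genes in each direction with the smallest p among those past the threshold; genes that overlap a member and the nearest tested gene on each side; and the 5 genes with at least 5 CPM that correlated best with B3GAT1 and with CHST10 (prior count 0.5). Genes named as not passing, B4GALT4, NRCAM, MAG and FYN, and counts within 1 Mb were chosen after their values were seen.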

Additional observations from a re-analysis of the deposited data

How the results depend on the processing

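The log2 fold change of B3GAT1 was 4.53 to 4.74 when single libraries were left out and 3.02 and 4.36 in limma on log2(TPM + 1) and log2(TPM + 0.1), where the pseudocount shrinks low values by construction. L1CAM passed and CHST10 missed the threshold in all 15 alternatives. B3GAT3 ran from -0.197 to 0.000203 with single libraries left out, changing sign without ALDH_High library 3. NCAM1 ran from -1.22 to -0.728 in those fits, missing the threshold in 4 of them, and was -0.633 and -0.988 in limma on log2(TPM + 1) and log2(TPM + 0.1), short of it each time; the cause was not tested. Of 75 pathway genes tested, 28 passed (23 higher, 5 lower), with 18 (16 and 2) in limma on log2(TPM + 1) for every gene with a TPM above 0, which gave 2006 of all genes (1155 higher, 851 lower) against 3513 (1838 and 1675). The limma fits on genes of mean TPM at least 1 gave 1047 and 1051 lower genes. That fit on every gene also lost MGAT3, MGAT5, POMT1, ST3GAL6, FUT9, SOX9 and MITF. With single libraries left out, 22 to 30 pathway genes passed, 20 to 23 higher and 1 to 8 lower, and 2488 to 4221 of all genes; the 5 lower genes became 8 without ALDH_High library 1 and 1 or 2 in each of the other 5 fits. Libraries of equal replicate number deviated together with correlations of 0.15, 0.076 and 0.108, each the highest for its library. The labels do not say that equal numbers are pairs, so the main fit had no replicate term. A pairing remains possible. With the replicate number as a block, 3748 genes and 30 pathway genes passed, NCAM1 at adjusted p 0.0102, and no call of a member changed.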

Other observations

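In the authors' deposited table, other carriers of HNK-1 had unlike patterns over the groups HIG, LOW, CAS and OUT1A3, given here in that order as log2 coefficients against the group named 1A3; these 4 genes were chosen after their values were seen. PTPRZ1 stands at 4.11, 0.55, 2.62 and 1.89 in the authors' deposited table, and TNC at 1.73, -0.56, 0.75 and 1.31. NRCAM stands at 1.01, -1.29, -0.75 and -1.66 in the authors' deposited table, so that HIG alone is above 0. NFASC stands at 0.99, 1.03, 1.501 and 2.03 in the authors' deposited table, with HIG and LOW nearly equal. Differences among these groups were not tested, and HIG and LOW share the libraries of the main fit.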
